A study of Mus musculus with 12 samples.

Results

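The DNA replication and mitosis genes described here are 40 named genes, found by symbol among the 55487 gene IDs of a mouse kidney RNA-seq table. The choice was made by name and function, with earlier results of these data known. Of the 40, 20 act mainly in mitosis (Mki67, Top2a, Ccna2, Ccnb1, Ccnb2, Cdk1, Aurka, Aurkb, Birc5, Bub1, Bub1b, Cenpf, Plk1, Cdc20, Kif11, Kif20a, Nusap1, Tpx2, Ttk and Ndc80) and 20 in DNA replication. The replication arm compared with the mitotic one has 13 genes (Mcm2 to Mcm7, Pcna, Rrm1, Rrm2, Tyms, Cdc45, Gins1 and Gins2), and 7 more replication genes (Cdc6, Cdt1, Prim1, Pola1, Fen1, Rfc4 and Chaf1a) are given beside it. All 40 had a row and all 40 passed the filter on low counts, and the lowest count of any of them in any library was 19.

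Whole kidneys were taken at postnatal day 15 and gave 12 libraries, 3 in each of 4 groups: Pkd1 KO, Pkd1 control, Cep120 KO and Cep120 control. Pkd1 encodes polycystin-1, a membrane protein of the primary cilium that is mutated in polycystic kidney disease, and Cep120 encodes a protein needed to build centrioles. Both lines carry the Hoxb7 driver, which acts in the ureteric bud and the collecting ducts that grow from it. Kidney cells of other origin are outside the reach of the deletion, and their share was not measured. KO libraries have titles that say homo. Control libraries have titles that say het and a genotype label that says WT, so whether they carried 1 mutant allele and the driver is not settled by the labels. The p-values rest on the spread between the 3 libraries of a group, estimated over all 4 groups. Nothing in the labels ties each library to its own animal, so this spread may be technical. The study asked which pathways are disturbed in cystic kidneys after loss of the centrosomal protein and after loss of the ciliary one.

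Cells about to divide first license replication origins by loading the MCM helicase, then copy DNA with polymerases, the sliding clamp PCNA and a supply of nucleotides, and later condense and separate the chromosomes on a spindle. Most genes of the S-phase machinery are transcribed late in G1 under E2F factors, and most mitotic genes late in the cycle under the DREAM, B-MYB and FOXM1 complexes, so both arms are low in resting tissue. In the mouse kidney after birth, nephron formation ends within days while tubules go on growing by cell division.

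Promoter sequences of 4 of the genes are shown so that the motif letters can be read beside the values. They were picked by p in the Pkd1 line among the genes with a promoter at hand. Cenpf and Ccnb2, whose RNA was much lower in Pkd1 KO, had the smallest p of the mitotic genes. Rrm2, much lower, had the smallest p of the replication genes, and Rrm1, almost level, the largest. Rrm2 and Rrm1 encode the subunits of ribonucleotide reductase. Each sequence runs 5′ to 3′ on the gene's strand, from 250 bases before to 50 bases after the RefSeq start in build GRCm38.p6. Capitals mark matches, on either strand, to the cell cycle homology region (CHR, searched by the letters TTTGAA and in its other form by TTCGAA), the CCAAT box, and the E2F core (searched by the letters TTCCCGC, in another form by TTGGCGC and in the last form by TTCGCGC). The windows are chr1:189688037-189688336 on the minus strand for Cenpf, chr9:70421505-70421804 on the minus strand for Ccnb2, chr12:24708004-24708303 on the plus strand for Rrm2 and chr7:102441445-102441744 on the plus strand for Rrm1.
Cenpf: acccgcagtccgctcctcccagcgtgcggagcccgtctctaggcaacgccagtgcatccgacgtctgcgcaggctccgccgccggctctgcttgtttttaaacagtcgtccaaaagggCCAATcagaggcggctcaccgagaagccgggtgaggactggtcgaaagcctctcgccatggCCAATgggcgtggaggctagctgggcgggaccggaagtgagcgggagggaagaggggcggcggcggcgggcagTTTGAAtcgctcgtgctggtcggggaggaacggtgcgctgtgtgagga
Ccnb2: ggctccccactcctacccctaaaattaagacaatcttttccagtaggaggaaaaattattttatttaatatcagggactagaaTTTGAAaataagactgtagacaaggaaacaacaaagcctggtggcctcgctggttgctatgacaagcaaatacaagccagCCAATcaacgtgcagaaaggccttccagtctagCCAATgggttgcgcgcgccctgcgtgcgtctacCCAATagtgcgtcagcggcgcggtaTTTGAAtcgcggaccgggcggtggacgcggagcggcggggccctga
Rrm2: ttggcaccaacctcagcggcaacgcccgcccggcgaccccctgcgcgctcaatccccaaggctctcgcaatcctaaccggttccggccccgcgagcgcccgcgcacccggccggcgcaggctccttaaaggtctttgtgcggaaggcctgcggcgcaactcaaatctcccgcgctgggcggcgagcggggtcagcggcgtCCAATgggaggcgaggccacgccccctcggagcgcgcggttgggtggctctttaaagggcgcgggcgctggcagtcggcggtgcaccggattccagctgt
Rrm1: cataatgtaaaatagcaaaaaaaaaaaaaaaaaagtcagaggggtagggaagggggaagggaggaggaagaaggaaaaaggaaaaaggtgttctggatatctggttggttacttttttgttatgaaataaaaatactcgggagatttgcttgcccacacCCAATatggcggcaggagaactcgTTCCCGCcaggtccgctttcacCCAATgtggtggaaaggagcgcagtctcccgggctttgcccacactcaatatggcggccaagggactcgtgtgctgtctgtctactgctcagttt
The Cenpf and Ccnb2 windows each have a CHR match just after the start, the first base at 2 and at 4 where the start base counts as 0. Ccnb2 has another CHR match far upstream, at -167. Upstream of the match near the start Cenpf has 2 CCAAT boxes and Ccnb2 has 3, in Cenpf at -132 and -71 and in Ccnb2 at -87, -54 and -21. The Rrm2 window has 1 CCAAT box at -50 and no match to the other motifs, and the Rrm1 window has 2 CCAAT boxes and an E2F core match at -67. No matches overlapped in these windows.

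Over all genes matched to the RefSeq promoter table, 33 of the 40 had 35 promoters. Ccna2, Aurkb, Kif20a, Tpx2, Mcm4, Gins1 and Gins2 had no entry. A CHR match stood in 13 of 16 mitotic promoters (81.2%), 3 of 11 promoters of the replication arm (27.3%) and 1 of 8 promoters of the other 7 replication genes (12.5%), against 19.2% of all 32851 promoters in the table. Within 50 bases of the start, it stood in 12 of 16 mitotic promoters (75%), 1 of 11 in the replication arm (9.09%), 0 of 8 of the others and 5.31% of all promoters. An E2F core match was held by 3 of 16 mitotic promoters (18.8%), 6 of 11 of the replication arm (54.5%), 7 of 8 of the other replication genes (87.5%) and 8.07% of all. CCAAT boxes were frequent in both arms, at 81.2% and 90.9%, against 37.4% of all promoters. The other replication genes had them in 3 of 8 promoters (37.5%), near the share of all promoters. These matches are letters in a window, and binding was not measured.

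**Figure D1:**
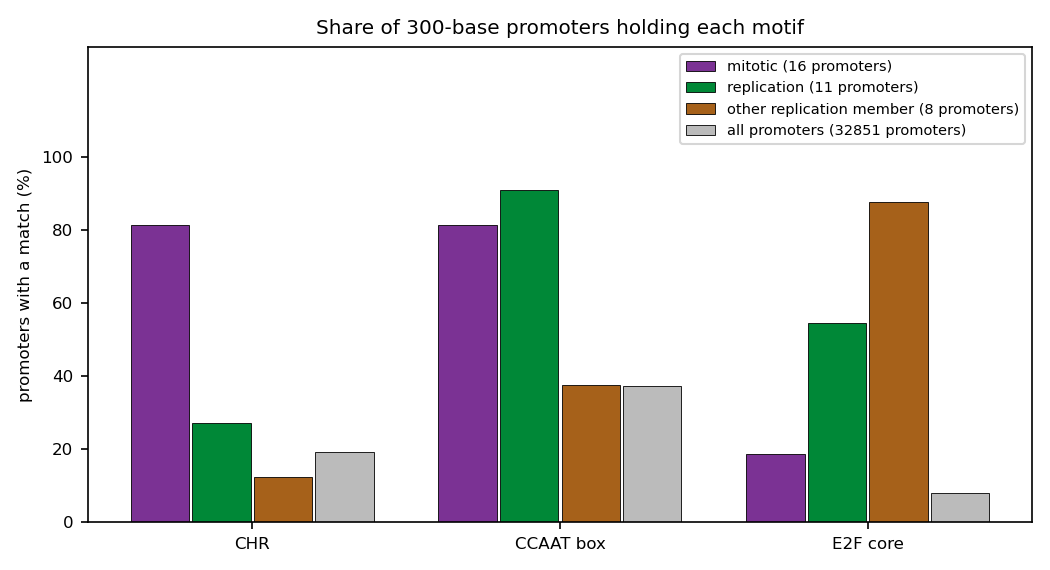
Share of 300-base promoters (percent, y axis) with at least 1 match to each motif (x axis) in the mitotic genes, the replication arm, the other replication genes and all promoters of the table. CHR matches were most frequent in mitotic promoters (81.2%) and E2F core matches in those of the other replication genes (87.5%).

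Some features of the libraries touch every comparison below. Library totals were 23070688 to 31837958 counts, and 19890 genes were tested. RNA of the targeted genes was not lower in their own KO libraries. Pkd1 averaged 28.8 ± 6.69 CPM (counts scaled to library size, with TMM factors) in Pkd1 KO and 17.2 ± 3.998 CPM in Pkd1 controls (higher in KO, adjusted p = 0.00952), and Cep120 averaged 17.9 ± 2.16 CPM in Cep120 KO and 16.2 ± 2.505 CPM in Cep120 controls (adjusted p = 0.835 by edgeR; SD, n = 3 each). KO here therefore means a library labelled KO. Counts over the whole gene do not test for the loss of a deleted exon in some of the cells. Sex-linked RNA follows the groups of the Pkd1 line: Xist was at or under 0.169 CPM in all 3 Pkd1 KO libraries and at 49.97 to 136 CPM in the 3 Pkd1 controls, and 4 Y-linked genes summed to 135 to 147 CPM in Pkd1 KO and to 0.0651, 0.0502 and 96.95 CPM in Pkd1 controls 1 to 3. Pkd1 control 3 thus held both kinds of RNA, as did Cep120 KO 3 and Cep120 controls 1 and 2 (Y-linked sums of 12.01 to 28.3 CPM), and sex and the Pkd1 KO label cannot be told apart within this line. Genes with a count above 0 numbered 23532 to 25652 in the Pkd1 KO libraries, Pkd1 controls 1 and 2 and Cep120 control 3, and 30289 to 32705 in the other 6, so control replicate 3 of each line stood with the other class.

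In control kidneys the 40 genes were expressed over a wide range of levels. In TPM, transcript abundance that allows for gene length, the highest means over the 6 control libraries were 115 TPM for Tyms (thymidylate synthase), 81.2 TPM for Rrm2 (the S-phase subunit of ribonucleotide reductase), 75.2 TPM for Cdk1 (the kinase that drives entry into mitosis) and 71.2 TPM for Pcna (the sliding clamp). The lowest were 0.924 TPM for Chaf1a, a histone chaperone subunit, 2.0 TPM for Pola1, the catalytic subunit of the priming polymerase, and 2.21 TPM for Bub1, a checkpoint kinase. Group means of the mitotic genes spanned 0.439 to 33.0 TPM in Pkd1 KO and 1.90 to 68.8 TPM in Pkd1 controls, and those of the replication arm 2.69 to 64.9 TPM in Pkd1 KO and 5.09 to 111 TPM in Pkd1 controls. The 20 mitotic genes together summed to 92.2, 91.7 and 146 TPM in Pkd1 KO 1 to 3, against 326, 305 and 348 TPM in Pkd1 controls 1 to 3. The 13 genes of the replication arm summed to 248, 262 and 343 TPM in Pkd1 KO, against 503, 421 and 425 TPM in Pkd1 controls. Neither pair of sums overlapped. In whole kidney RNA, fewer dividing cells and less RNA per cell cannot be told apart.

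The comparison of Pkd1 KO with Pkd1 control sets the libraries labelled KO beside the control libraries of the same line. In Pkd1 KO kidneys 34 of the 40 genes were lower and 0 were higher by edgeR's quasi-likelihood test (adjusted p under 0.05 over all genes), and 25 of them were lower by at least 2-fold. Of all genes tested 44.4% passed in this comparison, 22.4% lower and 22.1% higher, and 13.2% were lower by at least 2-fold. All 20 mitotic genes fell, and the middle of their log2 fold changes was -1.87, or 3.66-fold lower. In the replication arm 10 of 13 fell, with a median of -0.70, or 1.63-fold lower, and of the other 7 replication genes 4 fell, with a median of -0.83. The median of all genes tested was -0.0435. The median of the replication arm lay 1.17 log2 units above that of the mitotic genes.

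**Figure D2:**
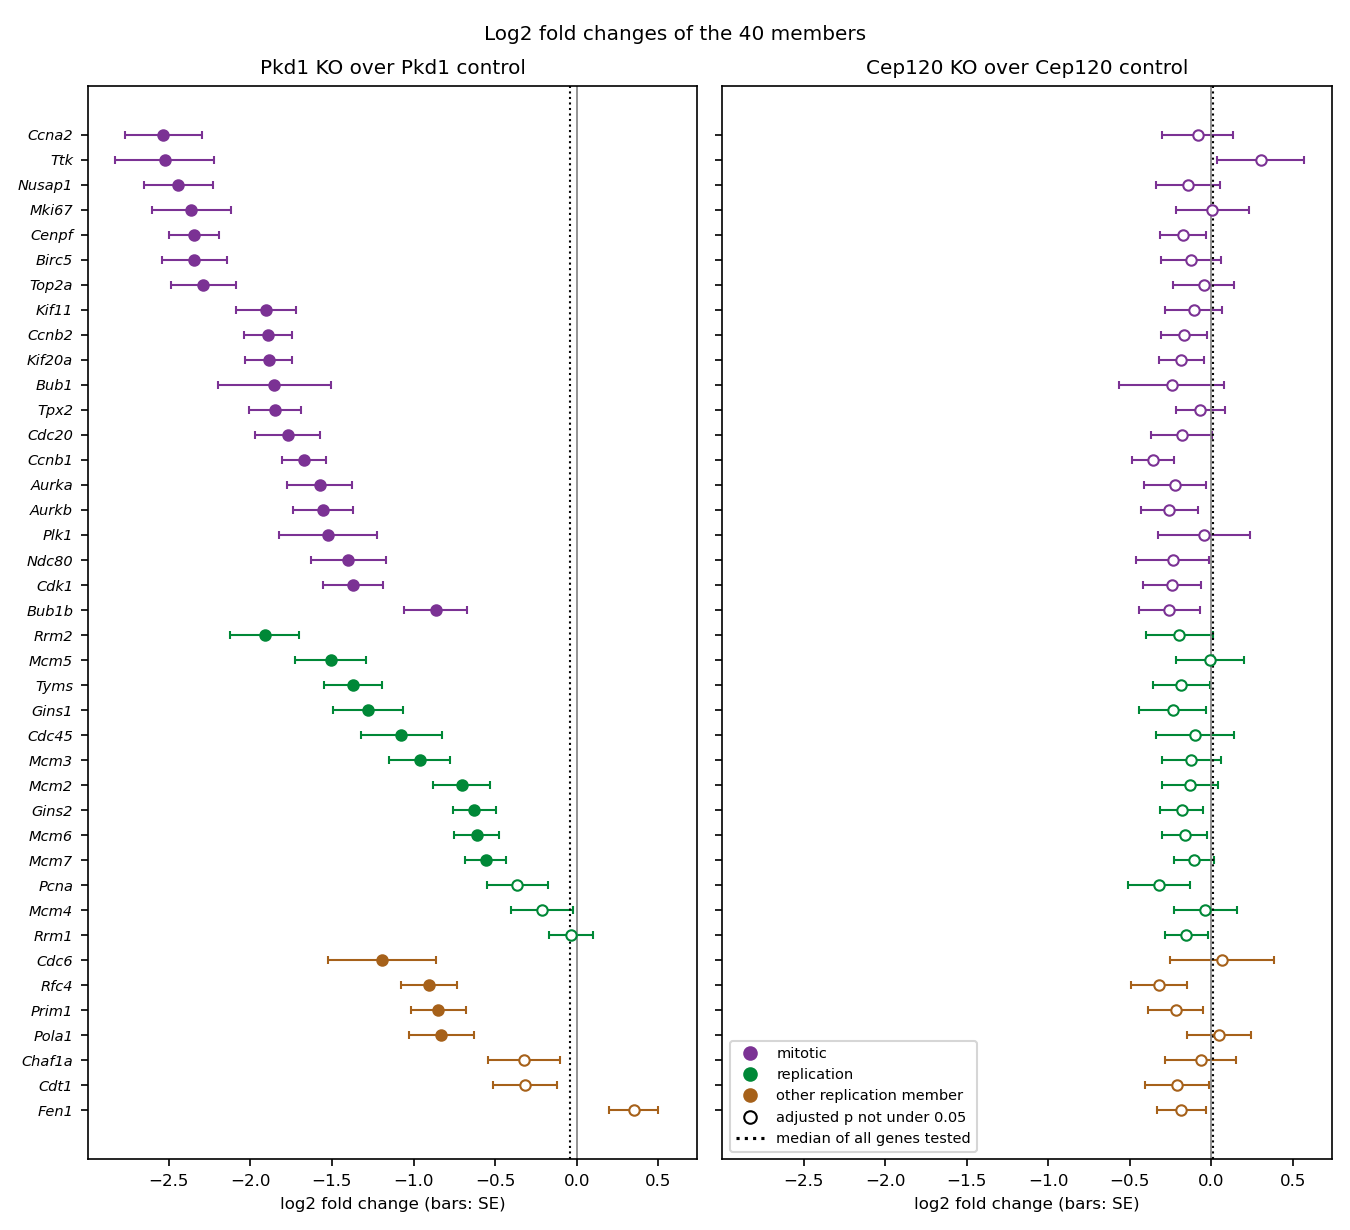
Log2 fold change (x axis, bars are SE) of each of the 40 genes in Pkd1 KO over Pkd1 control (left) and Cep120 KO over Cep120 control (right), by arm and in the order of the Pkd1 values. Filled points passed the test: 34 of 40 on the left and 0 of 40 on the right, and the dotted line is the median of all genes tested.

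Mki67 (ENSMUSG00000031004), which encodes the Ki-67 protein that coats mitotic chromosomes and marks cycling cells, had 7.28, 5.83 and 11.7 CPM in Pkd1 KO 1 to 3, against 43.9, 37.2 and 46.3 CPM in Pkd1 controls 1 to 3. The groups did not overlap, with Pkd1 KO 3 the highest KO library and still far below every control. The log2 fold change was -2.36 ± 0.24 (SE; adjusted p = 1.05e-05), or 5.14-fold lower. Top2a (ENSMUSG00000020914), the topoisomerase that untangles chromosomes, had 9.55, 11.8 and 17.7 CPM in Pkd1 KO, against 70.0, 55.6 and 64.7 CPM in Pkd1 controls. Again every Pkd1 KO library lay below every control, and Pkd1 KO 3 was the highest of the KO libraries. The log2 fold change was -2.29 ± 0.20 (adjusted p = 3.54e-06).

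Cenpf (ENSMUSG00000026605), a protein of the kinetochore, had the smallest p of all 40 genes. Its values were 4.67, 4.41 and 6.53 CPM in Pkd1 KO, against 25.5, 25.6 and 28.3 CPM in Pkd1 controls, groups far apart with little spread inside either. The log2 fold change was -2.35 ± 0.15 (adjusted p = 6.23e-07), or 5.09-fold lower. Kif20a, a kinesin of the spindle midzone that is needed for cell cleavage, had 9.21, 7.67 and 10.7 CPM in Pkd1 KO, against 36.6, 31.3 and 34.2 CPM in Pkd1 controls. The groups were well separated here too, with a log2 fold change of -1.89 ± 0.15 (adjusted p = 1.76e-06). The B-type cyclins activate CDK1 for mitosis. Ccnb2 (ENSMUSG00000032218) had 12.97, 12.98 and 17.0 CPM in Pkd1 KO, against 48.2, 59.5 and 51.9 CPM in Pkd1 controls, with no overlap and a log2 fold change of -1.89 ± 0.15 (adjusted p = 1.78e-06). Ccnb1 had 14.2, 14.9 and 17.2 CPM in Pkd1 KO, against 45.8, 56.6 and 45.4 CPM in Pkd1 controls, also without overlap, and a log2 fold change of -1.67 ± 0.13 (adjusted p = 2.20e-06). Ccnb1-ps and Ccnb2-ps, processed copies with up to 47.3 and 53.0 counts in a library, could share reads with the cyclins.

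The mitotic genes with the weakest evidence were Bub1b and Plk1. Bub1b encodes BUBR1, which holds cells in metaphase until chromosomes are attached, and it had 8.26, 6.77 and 12.1 CPM in Pkd1 KO, against 18.4, 15.9 and 15 CPM in Pkd1 controls. Its groups did not overlap, but it was the only mitotic gene lower by less than 2-fold, with a log2 fold change of -0.86 ± 0.19 (adjusted p = 0.00284). Plk1, the Polo-like kinase of spindle assembly, had 3.89, 2.71 and 8.40 CPM in Pkd1 KO, against 12.5, 16.3 and 14.3 CPM in Pkd1 controls. Pkd1 KO 3 lay about midway between the other KO libraries and the controls, and the log2 fold change was -1.53 ± 0.30 (adjusted p = 0.00128).

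The remaining mitotic genes spanned log2 fold changes of -1.37 for Cdk1 to -2.53 for Ccna2, the cyclin of S phase and G2. Among genes of the kinetochore and the spindle checkpoint the log2 fold change was -2.53 for Ttk (the checkpoint kinase MPS1), -1.85 for Bub1, -1.399 for Ndc80 (which binds microtubules) and -1.77 for Cdc20 (which starts anaphase). For the chromosomal passenger complex it was -2.34 for Birc5 (survivin) and -1.55 for Aurkb, its kinase. For spindle genes it was -2.44 for Nusap1, -1.91 for Kif11 (the kinesin that pushes spindle poles apart), -1.85 for Tpx2 and -1.57 for Aurka (the kinase that TPX2 activates). In each of the 20 mitotic genes the 3 Pkd1 KO libraries lay below all 9 other libraries, which held for 19.2% of all genes tested, and Pkd1 KO 3 was the highest of the 3, as in 33.1% of all genes.

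**Figure D3:**
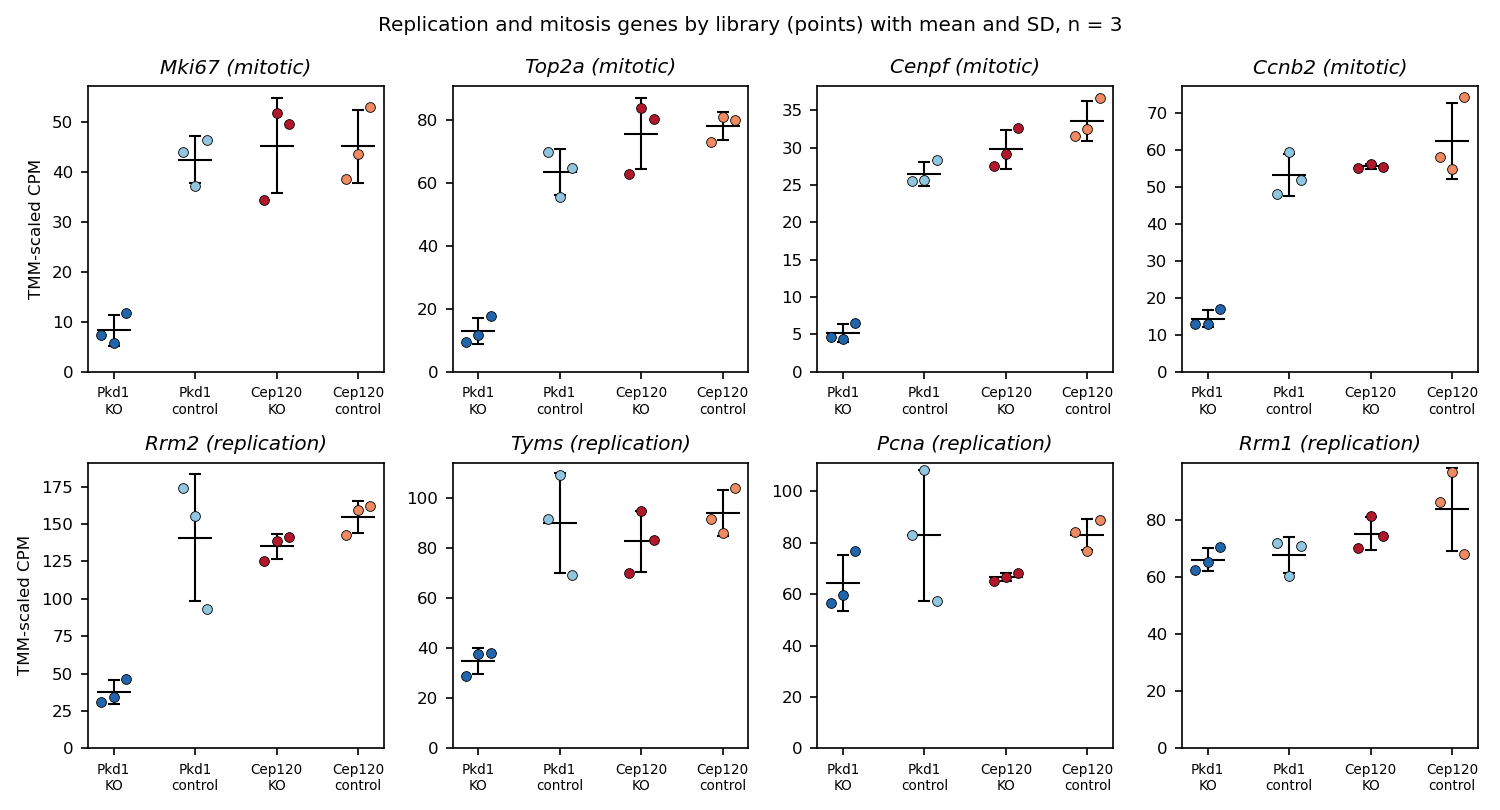
TMM-scaled CPM (y axis) of 8 genes in each library (points) with mean and SD of 3 libraries per group. In the 4 mitotic genes and in Rrm2 and Tyms the Pkd1 KO points lie below all other points, while for Pcna and Rrm1 they overlap the Pkd1 controls.

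The replication arm did not move as one, as the enzymes that make nucleotides for S phase show. Rrm2 had 31.3, 34.4 and 46.7 CPM in Pkd1 KO, against 174, 156 and 93.0 CPM in Pkd1 controls, with Pkd1 control 3 well below the other controls but still clear of every KO library. The log2 fold change was -1.91 ± 0.21 (adjusted p = 1.84e-05), or 3.76-fold lower. Rrm1 encodes the large subunit of the same enzyme, whose protein persists through the cell cycle. It had 62.3, 65.2 and 70.5 CPM in Pkd1 KO, against 71.9, 60.2 and 70.8 CPM in Pkd1 controls. The groups overlapped almost fully, and the log2 fold change was -0.035 ± 0.13 (adjusted p = 0.849). Within a library, the TPM ratio of Rrm2 to Rrm1 was 0.772, 0.816 and 0.995 in Pkd1 KO 1 to 3, against 3.84, 3.62 and 1.75 in Pkd1 controls 1 to 3. That ratio was below 1 in all 3 Pkd1 KO libraries and above 1 in all 3 Pkd1 controls. Rrm2 had the smallest and Rrm1 the largest p of the replication genes in this comparison. Both are given by library for that reason, so the gap in their ratio largely follows from the choice. Tyms, which makes the thymidine nucleotide, had 28.8, 37.6 and 37.9 CPM in Pkd1 KO, against 91.7, 109 and 69.2 CPM in Pkd1 controls. No library of one group reached into the other, and the log2 fold change was -1.37 ± 0.18 (adjusted p = 5.94e-05).

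The 6 MCM subunits form the ring of the replicative helicase, yet their RNA differed in how far it was lowered. Mcm5 had 11.7, 12.6 and 21.1 CPM in Pkd1 KO, against 54.2, 36.7 and 38.0 CPM in Pkd1 controls, without overlap, and its log2 fold change was -1.51 ± 0.22 (adjusted p = 0.000132). Mcm3, Mcm2, Mcm6 and Mcm7 fell as well, with log2 fold changes of -0.96, -0.70, -0.61 and -0.56 (adjusted p = 0.00107 to 0.00564). Mcm4 did not pass. It had 27.6, 29.1 and 32.2 CPM in Pkd1 KO, against 40.2, 26.6 and 36.1 CPM in Pkd1 controls, with Pkd1 control 2 below all KO libraries and a log2 fold change of -0.21 ± 0.19 (adjusted p = 0.383). Mcm5 relative to Mcm4 stood at 0.524, 0.518 and 0.759 by TPM in Pkd1 KO, against 1.73, 1.78 and 1.32 in Pkd1 controls. Mcm5 was given for its small p and Mcm4 for its large p in this comparison, so this gap too largely follows from the choice.

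CDC45 and the GINS complex join the MCM ring to make the moving helicase. Gins1 had 1.86, 2.19 and 2.73 CPM in Pkd1 KO, against 5.24, 5.43 and 5.78 CPM in Pkd1 controls, 2 narrow groups far from touching, and a log2 fold change of -1.28 ± 0.21 (adjusted p = 0.000403). Gins2 and Cdc45 fell too, with log2 fold changes of -0.63 ± 0.13 (adjusted p = 0.00212) and -1.07 ± 0.25 (adjusted p = 0.00372). Pcna, a widely used marker of proliferation, did not pass, with 56.6, 59.8 and 77.0 CPM in Pkd1 KO, against 83.0, 108.5 and 57.3 CPM in Pkd1 controls. Pkd1 control 3 lay inside the range of the KO libraries, and the log2 fold change was -0.36 ± 0.19 (adjusted p = 0.135). Pcna-ps2, a processed copy with up to 412 counts in a library, could share reads with Pcna. Without Pkd1 control 3, Pcna passed the test with a log2 fold change of -0.59.

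Among the 7 other replication genes, Cdc6, a loader of the MCM ring, fell with a log2 fold change of -1.19 ± 0.33 (adjusted p = 0.011), and Prim1, the primase subunit, with -0.85 ± 0.17 (adjusted p = 0.00142). Pola1, on the X chromosome, had -0.83 ± 0.20 (adjusted p = 0.00474), and Rfc4, a subunit of the PCNA loader, -0.91 ± 0.17 (adjusted p = 0.00104). Cdt1, the other MCM loader, and Chaf1a had log2 fold changes of -0.32 and -0.32 and did not pass (adjusted p = 0.204 and 0.250). Fen1, the nuclease that trims Okazaki fragments, was the only one of the 40 with a value above 0, the other 39 lying below it, as 52.2% of all genes did. It had 43.5, 44.3 and 54.8 CPM in Pkd1 KO, against 40.2, 33.6 and 38.0 CPM in Pkd1 controls, all KO libraries above all controls, with a log2 fold change of 0.35 ± 0.15 that did not pass (adjusted p = 0.0734). Over the 40 genes, 34 had all Pkd1 KO libraries below all Pkd1 controls and 1 had them above, against 25.5% and 27.4% of all genes.

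The difference between the arms held in each library of the group. With each gene's log2 CPM taken relative to its mean in the 6 control libraries, the mitotic genes averaged -2.28, -2.35 and -1.61 in Pkd1 KO 1 to 3, against -0.16, -0.11 and -0.19 in Pkd1 controls 1 to 3. The replication arm averaged -1.20, -1.06 and -0.67 in Pkd1 KO, against 0.036, -0.096 and -0.27 in Pkd1 controls. Mitotic level minus replication level was -1.09, -1.29 and -0.94 in Pkd1 KO, against -0.20, -0.014 and 0.082 in Pkd1 controls, or -1.10 ± 0.175 and -0.043 ± 0.14 (SD, n = 3 each). Those values do not overlap, and the KO library with the highest level in 1 arm, Pkd1 KO 3, was also the highest in the other. By promoter letters, the 13 mitotic genes with a CHR match had a median log2 fold change of -1.85 and the 3 without one (Birc5, Ccnb1 and Nusap1) -2.34. Among those of the 20 replication genes with a promoter, 4 had a CHR match (Cdc45, Fen1, Mcm2 and Mcm7). Their median was -0.63, and that of the 13 without a CHR match was -0.85. The less negative median with a match was not particular to CHR. For CCAAT boxes the medians with and without a match were -1.85 and -2.34 in the mitotic genes and -0.77 and -0.91 in the replication genes. For the E2F core they were -1.67 and -1.89 in the mitotic genes and -0.72 and -1.07 in the replication genes.

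**Figure D4:**
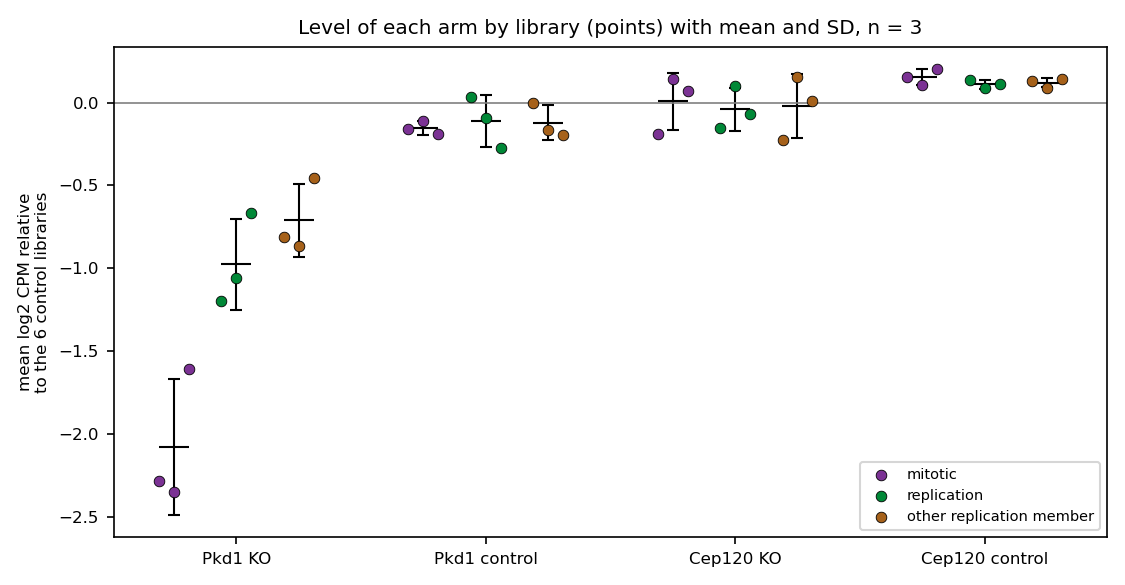
Mean log2 CPM of each set of genes relative to the 6 control libraries (y axis) in each library (points), with mean and SD of 3 libraries per group. Pkd1 KO libraries lie at -2.35 to -1.61 for the mitotic genes and at -1.20 to -0.67 for the replication arm, and the other 9 libraries lie near 0 in all sets.

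Because sex-linked RNA and the number of genes detected varied between libraries, the counts were repeated with these as terms in the fit. With a term for the presence of Xist (at least 1 CPM), which only the Cep120 KO group can inform since presence differed within no other group, 16 of 20 mitotic genes and 3 of 13 in the replication arm (Mcm5, Rrm2 and Tyms) still passed as lower, along with 0 of the other 7, and 5.08% of all genes did. The medians were then -1.78 for the mitotic genes and -0.85 for the replication arm, and the median SE of the mitotic genes was 0.37 in place of 0.20. Bub1, Bub1b, Plk1 and Ndc80 were the mitotic genes that no longer passed. With a term for Y-linked RNA, 19 of 20, 6 of 13 and 1 of 7 passed as lower, with medians of -1.82, -0.70 and -0.51, where 11.8% of all genes were lower. Without replicate 3 of both control groups, 20 of 20, 11 of 13 and 4 of 7 did, as did 21.0% of all genes. With a term for the number of genes detected the counts were also 20, 11 and 4, beside 22.8% of all genes.

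Marker genes of other cells and of tubules moved in the same comparison, in which 22.4% of all genes were lower and 22.1% higher. Summed over 8 macrophage markers, RNA was at 684 to 999 CPM in Pkd1 KO and 102 to 267 CPM in Pkd1 controls, and 8 of 8 rose. The 7 fibroblast and myofibroblast markers summed to 5286 to 8660 CPM in Pkd1 KO and 1308 to 2269 CPM in Pkd1 controls, and 6 of 7 rose. Tubular injury markers summed to 9938 to 11790 CPM in Pkd1 KO and 2996 to 6082 CPM in Pkd1 controls, and 4 of 6 rose. Lower sums were found for 8 erythroid markers, at 512 to 1494 CPM in Pkd1 KO and 6117 to 10620 CPM in Pkd1 controls (7 of 8 fell), for 6 endothelial markers, at 272 to 338 CPM in Pkd1 KO and 501 to 524 CPM in Pkd1 controls (5 of 6 fell), and for 7 T and B cell markers, at 3.55 to 4.41 CPM in Pkd1 KO and 11.6 to 13.3 CPM in Pkd1 controls (6 of 7 fell, with Ms4a1 at 0 in at least 1 library). Of 15 markers of kidney epithelium 10 fell and 4 rose, with sums of 2286 to 3731 CPM in Pkd1 KO and 5464 to 7958 CPM in Pkd1 controls, and Pvalb at 0 in 1 library. Those that rose were the principal cell markers Aqp2 (log2 fold change 2.51), Scnn1b (2.16) and Gata3 (1.91) and the intercalated cell marker Foxi1 (0.92), all of the collecting duct. The other intercalated cell markers on the list, Atp6v1g3 and Slc4a1, fell with log2 fold changes of -1.53 and -3.08. Slc34a1 of the proximal tubule, which made up much of the sum, averaged 282 CPM in Pkd1 KO and 2816 CPM in Pkd1 controls. Nephron progenitor markers summed to 25.9 to 30.6 CPM in Pkd1 KO and 50.2 to 63.0 CPM in Pkd1 controls, 3 of the 5 tested fell and 1 rose, and Six2 was at 0 in at least 1 library. The 6 markers of skeletal muscle and fat summed to 1.16 to 68.0 CPM in Pkd1 KO and 32.5 to 267 CPM in Pkd1 controls. Of the 4 tested 1 was lower and 1 higher, and 3 of the 6 were at 0 in at least 1 library. The part of these shifts in the result for the replication and mitosis genes was not tested.

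Genes of the same pathways outside the 40 were listed with earlier results of these data known. Of all genes tested, 22.4% were lower and 22.1% higher in Pkd1 KO, the shares to set beside each count here. Of 40 further mitotic genes 38 fell and 0 rose in Pkd1 KO, and their median log2 value was -1.68. Those with the smallest p were Esco2, which ties sister chromatids together (-2.95), Hmmr, a spindle protein (-2.90), and Cks2, a partner of CDK1 (-2.29). Bub3 of the spindle checkpoint and Incenp of the passenger complex did not pass, with log2 fold changes of -0.033 and -0.27. Of 38 further replication genes 18 fell and 1 rose, with a median of -0.47. Dut (-1.34) and Tk1 (-1.82), both enzymes of thymidine nucleotide supply, were among those with the smallest p, and Rfc3, another subunit of the clamp loader, was higher at 0.67. Of 26 regulators 12 fell and 3 rose, with a median of -0.21. E2f1, an activator of S-phase genes, and Foxm1, an activator of mitotic genes, fell with log2 fold changes of -1.23 and -1.44. Those that rose were Lin9 and Lin37, subunits of the complexes that act at CHR sites, at 1.20 and 0.46, and Cdc25b, a phosphatase that activates CDK1, at 0.69. E2f1 had 2.74, 2.09 and 2.33 CPM in Pkd1 KO, against 5.67, 4.87 and 6.24 CPM in Pkd1 controls, and Lin9 had 21.6, 19.5 and 15.6 CPM in Pkd1 KO, against 8.31, 8.29 and 8.16 CPM in Pkd1 controls. Neither gene's groups overlapped.

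**Figure D5:**
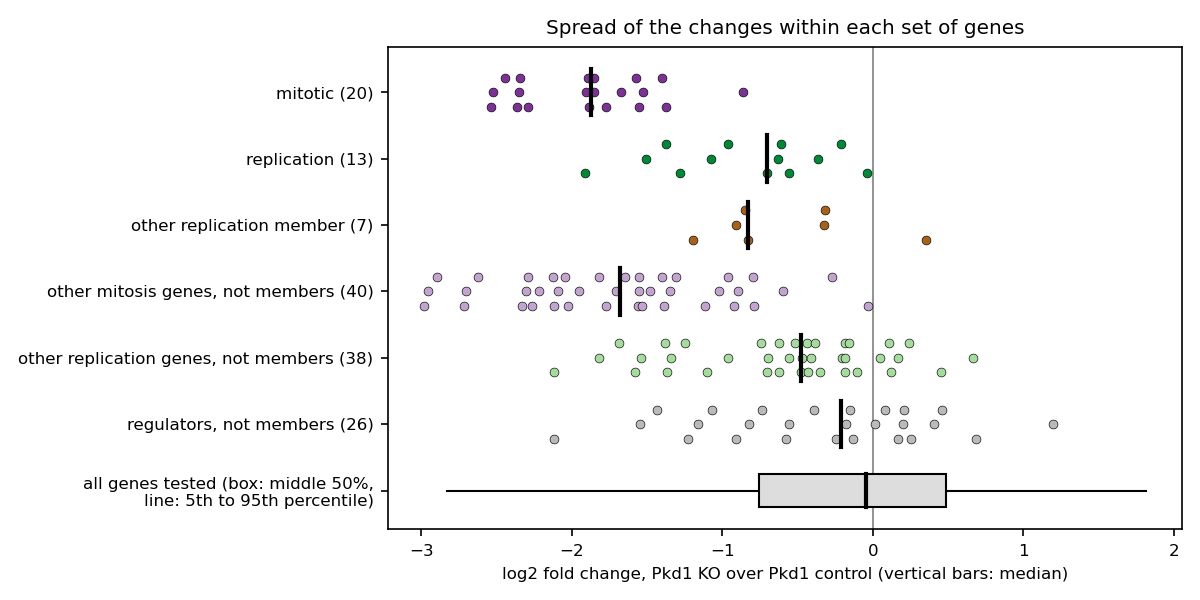
Log2 fold change in Pkd1 KO over Pkd1 control (x axis) of each gene (points) in the sets described in the text, with the median of each set as a vertical bar and all genes tested as a box (middle 50%) and a line (5th to 95th percentile). The further mitotic genes (median -1.68) lie where the 20 mitotic genes do (median -1.87), and the further replication genes (median -0.47) spread across 0.

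In the comparison of Cep120 KO with Cep120 control, 0 of the 40 genes passed edgeR's test, and 0.0% of all 19890 genes did. At an unadjusted p under 0.05 there was 1 of the 40, Ccnb1, against 6.04% of all genes, and DESeq2 and limma voom also called 0 of the 40. Medians were -0.17 for the mitotic genes and -0.15 for the replication arm, 36 of 40 log2 fold changes lay below 0, against 48.4% of all genes, whose median was 0.012. No member reached a 2-fold change: the values ran from -0.36 (Ccnb1) to 0.30 (Ttk).

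Ccnb1 had 42.5, 56.1 and 53.8 CPM in Cep120 KO 1 to 3, against 64.2, 65.7 and 65.3 CPM in Cep120 controls 1 to 3. All KO libraries lay below the controls, with a log2 fold change of -0.36 ± 0.13 (adjusted p = 0.757). Pcna had 65.0, 66.5 and 68.2 CPM in Cep120 KO, against 84.0, 76.7 and 88.8 CPM in Cep120 controls, also without overlap, with a log2 fold change of -0.32 ± 0.19 (adjusted p = 0.757). Rfc4 had 18.7, 24.7 and 24.0 CPM in Cep120 KO, against 29.9, 26.9 and 27.6 CPM in Cep120 controls (-0.32 ± 0.17, adjusted p = 0.757). Each of these 3 genes had its KO libraries below its controls by a margin too small to pass over all genes. Aurkb had 22.8, 27.9 and 26.7 CPM in Cep120 KO, against 32.6, 29.6 and 30.3 CPM in Cep120 controls (-0.26 ± 0.18, adjusted p = 0.764). Bub1b had 16.5, 18.9 and 18.2 CPM in Cep120 KO, against 19.7, 19.5 and 24.95 CPM in Cep120 controls (-0.26 ± 0.19, adjusted p = 0.767). Gins2 had 34.9, 40.8 and 39.7 CPM in Cep120 KO, against 43.0, 41.2 and 46.7 CPM in Cep120 controls (-0.18 ± 0.13, adjusted p = 0.768). Those groups did not overlap either, but those of the next genes did. Kif20a had 35.9, 48.0 and 44.8 CPM in Cep120 KO, against 51.1, 46.3 and 49.0 CPM in Cep120 controls (-0.19 ± 0.14, adjusted p = 0.771). Prim1 had 20.7, 29.1 and 30.95 CPM in Cep120 KO, against 30.9, 32.4 and 30.6 CPM in Cep120 controls (-0.22 ± 0.17, adjusted p = 0.777), and in both genes Cep120 KO 1 was the lowest library. In all, 9 of the 40 genes were lower without overlap, against 7.88% of all genes.

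The markers of proliferation gave no common sign in the Cep120 line. Mki67 had 34.4, 51.9 and 49.5 CPM in Cep120 KO, against 38.5, 43.7 and 53.0 CPM in Cep120 controls, groups that overlapped, with a log2 fold change of 0.0058 ± 0.23 (adjusted p = 0.996). Top2a had 62.8, 83.8 and 80.4 CPM in Cep120 KO, against 73.2, 81.2 and 80.2 CPM in Cep120 controls, and -0.047 ± 0.19 (adjusted p = 0.962). Cep120 KO 1 was the lowest of its group in both genes and in 34 of the 40, as in 35.9% of all genes. Without Cep120 KO 1 the median of the 40 genes was -0.085, in place of -0.17 with all libraries, and with the deposited log2 CPM it was -0.025. The arms did not separate here: the median of the replication arm lay 0.016 log2 units above that of the mitotic genes, and the mitotic level minus the replication level averaged 0.048 ± 0.087 in Cep120 KO and 0.043 ± 0.042 in Cep120 controls (SD, n = 3 each). Of the further lists, 0 of 40 mitotic genes, 0 of 38 replication genes and 0 of 26 regulators passed.

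The difference between the Pkd1 and the Cep120 effects was tested in the same fit, as the Pkd1 log2 fold change minus the Cep120 one. It passed for 25 of the 40 genes, all of them more reduced in the Pkd1 line, while 28.1% of all genes passed, 14.2% in that direction and 13.9% in the other. Of the mitotic genes 19 of 20 passed, with a median difference of -1.71, all but Bub1b (-0.61 ± 0.27, adjusted p = 0.106). In the replication arm 5 of 13 passed (Mcm5, Rrm2, Tyms, Gins1 and Mcm3), with a median of -0.57, and of the other 7 only Pola1. The calls of Pola1 and Mcm3 were lost in 13 and 7 of the 24 alternatives, with differences of -1.05 to -0.75 for Pola1 and -1.13 to -0.72 for Mcm3, and that of Gins1 in 3. The count for the replication arm leaned on single libraries: it was 10 without Pkd1 KO 3 and 3 without Cep120 control 2. Without Pkd1 KO 3, 12.7% of all genes were lower. Over all genes, 4225 to 5781 passed in either direction with 1 library left out, and 5598 with all libraries. For Cenpf the difference was -2.18 ± 0.21 (adjusted p = 3.20e-05), from a change of -2.35 in the Pkd1 line and -0.17 in the Cep120 line. For Rrm1 it was 0.12 ± 0.19 and for Pcna -0.042 ± 0.27 (adjusted p = 0.665 and 0.922).

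The controls of the lines were compared as a check on level between lines. Of the 40 genes 0 passed between Pkd1 controls and Cep120 controls, as did 0.0% of all genes, and at an unadjusted p under 0.05 there were 8 of 40, against 4.19% of all genes. Still, 39 of 40 log2 values lay below 0, meaning lower in Pkd1 controls, against 49.7% of all genes, with a median of -0.26 beside 0.0019 for all genes, and 17 were lower without overlap, against 3.94% of all genes. Kif20a had 36.6, 31.3 and 34.2 CPM in Pkd1 controls, against 51.1, 46.3 and 49.0 CPM in Cep120 controls, with a log2 fold change of -0.52 ± 0.14 (adjusted p = 0.979). Plk1 had 12.5, 16.3 and 14.3 CPM in Pkd1 controls, against 25.7, 24.4 and 22.8 CPM in Cep120 controls, and -0.76 ± 0.29 (adjusted p = 0.979). For the mitotic genes the median between controls was -0.28, beside -1.87 within the Pkd1 line, and for the replication arm -0.26, beside -0.70.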

How the data were processed

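Expression was measured by RNA sequencing of whole kidney, with cDNA made by a SMARTer Ultra Low kit per the labels' protocols. Salmon 0.8.2, STAR 2.5.1a, featureCounts 1.4.6-p5 of Subread, bcl2fastq and build mm9 are listed, without roles, per the submitters' processing notes. The deposited gene table holds estimated counts; 21.6% of genes have values that are not whole, among them 15 of the 40 described. The authors also deposited TPM, used for levels between genes, and moderated log2 CPM, used as an alternative input. No source used here says whether counting used strand. Groups were read from the titles, homo as KO and het as control.

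Of 55774 lines, 287 repeated ones were dropped, and counts were rounded to whole numbers. In R 4.3.3, edgeR 4.0.16 (filterByExpr, TMM) fitted all 12 libraries as 4 groups by quasi-likelihood over 19890 genes, with a common biological coefficient of variation of 0.238, with p-values adjusted over all of them (Benjamini-Hochberg, threshold 0.05). The SE of a fold change follows from its size and test statistic. Values per library are TMM-scaled CPM, and totals of 23070688 to 31837958 counts limit precision, for counting error only. Within groups, libraries differed by more than sampling noise, with a chi-squared per gene of 5.58 for Cep120 controls 1 and 2 and 27.2 to 70.7 for the other pairs. Alternatives used limma 3.58.1 and DESeq2 1.42.0, other scaling, filters and thresholds, terms for Xist, Y-linked RNA and detected genes (split at 28000), the replicate block, and each library left out. Genes given in every library were Mki67, Top2a, Pcna and, for the 20 mitotic and the 20 replication genes in each line, those with the 4 smallest p, with the 2 largest p in the Pkd1 line. Of each further list those with the 3 smallest p could be named, and E2f1 and Lin9 are given by library outside the rule; Fen1, and of the further lists Bub3, Incenp, Rfc3, Lin37 and Cdc25b, were named after their values were seen. The 40 genes, the lists and the rules were chosen with earlier results of these data known, so no test over a list was made; values of some genes on the lists are not reported here. The search for CHR matches near the start was added after the shares over whole promoters were seen. Promoters came from a RefSeq table of build GRCm38.p6, which differs from mm9, and no other coordinates are given.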

Additional observations from a re-analysis of the deposited data

Results flagged for a closer look

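For 25 of the 40 genes the effects in the Pkd1 line and the Cep120 line differed by the test of the difference itself (edgeR, adjusted p under 0.05), where 28.1% of all genes did. Given as the Pkd1 log2 fold change minus the Cep120 one, the differences of the mitotic genes were Ttk -2.83, Ccna2 -2.45, Mki67 -2.37, Nusap1 -2.30, Top2a -2.24, Birc5 -2.22, Cenpf -2.18, Kif11 -1.80, Tpx2 -1.78, Ccnb2 -1.73, Kif20a -1.70, Bub1 -1.61, Cdc20 -1.59, Plk1 -1.48, Aurka -1.35, Ccnb1 -1.32, Aurkb -1.30, Ndc80 -1.16 and Cdk1 -1.13. Those of the replication genes were Rrm2 -1.72, Mcm5 -1.5003, Tyms -1.19, Gins1 -1.04, Mcm3 -0.84 and Pola1 -0.87. All 25 were lower in the Pkd1 line relative to the Cep120 line.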

How the results depend on the processing

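In the Pkd1 line 16 of the 20 mitotic calls held in every alternative run, the other 4 being lost only with the sex-linked terms. Of the 10 calls in the replication arm 3 held (Mcm5, Rrm2 and Tyms), and 0 of the 4 others. Over all genes 8839 passed in the main fit, and how many of them held in every alternative was not counted. With the Xist term 19 of the 40 passed, 3 of them in the replication arm and 3 of all 20 replication genes, with 2002 of all genes, and the replication arm lay 0.93 above the mitotic one. With the Y-linked term 6 in the arm and 7 of all 20 passed, with 4213 of all genes. At a threshold of 0.1, 1 replication gene (Fen1) was higher, and with 1 library left out 0 to 1. The median of the 40 genes was -1.75 to -1.27 with 1 library left out, lowest without Pkd1 KO 3.

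In the difference of the effects, replication calls numbered 9 in the arm and 13 of 20 with upper quartile scaling and with the filter of 5 CPM. They were 3 and 3 at a threshold of 0.01 (2751 of all genes) and 10 and 14 at 0.1 (1 higher). With 1 library left out they were 3 to 10 and 3 to 13 (0 to 1 higher), with 4225 to 5781 of all genes. Calls over all genes with that scaling, that filter and the threshold of 0.1 are not reported here, so a share is missing beside those counts. In the Cep120 line calls over all genes were 344 with no filter, 21 with DESeq2, 1 without replicate 3 of both controls and 0 to 2 with 1 library left out, and the replication median was -0.0077 with the deposited log2 CPM. Between controls they were 248 with no filter (1 of the 40, a mitotic gene), 1 with the detected-gene term, 371 without replicate 3 of both controls and 0 to 4 with 1 library left out.

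Signs turned only for genes that did not pass in the comparison concerned, among them Pcna at -0.36 and Fen1 at 0.35 in the Pkd1 line. In the Pkd1 line Pcna was 0.13 and Cdt1 0.0045 with the Y-linked term, Fen1 -0.18 with the Xist term, and Rrm1 0.051 with the detected-gene term, 0.059 with the deposited log2 CPM and -0.11 to 0.013 with 1 library left out. In the difference, Mcm4 was 0.0008 with the detected-gene term, Cdt1 0.032 and Pcna 0.18 with the Y-linked term, and Pcna 0.017, 0.028 and 0.21 without Cep120 control 2, Pkd1 KO 1 and Pkd1 control 2 (range -0.27 to 0.21). In the Cep120 line Mki67 was -0.013 with no filter, -0.004 with voom and -0.10 to 0.17 with 1 library left out (-0.10, -0.063, -0.0996 and -0.021 where it turned), Top2a 0.040 with the Xist term, 0.077 with the deposited log2 CPM and -0.13 to 0.068 with 1 left out, and Prim1 0.023 with the Y-linked term. The cause of these shifts was not tested.

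Replicate numbers did not pair the libraries: 2 of 18 same-numbered pairs had deviations that correlated over 0.1 (range -0.599 to 0.178), and 0 libraries correlated best with their own number. With the replicate block 34 of the 40 genes passed in the Pkd1 line, as without it, and the replication arm had 4 calls in the difference in place of 5. Calls over all genes with the block are not reported here.

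Limits are 3 libraries a group, sex-linked RNA that follows the Pkd1 KO label, labels that RNA of the targeted genes does not check, whole kidney in place of the deleted cells, and low counts of Bub1, Ttk, Gins1 and Chaf1a.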
